A study of Drosophila melanogaster with 19 samples.

Results

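The long back-splice junctions of fly heads are those whose ends lie from 10 kb to 100 kb apart on the genome. They were taken by that distance alone from the joined tables of head replicates 1 and 2, and they number 382 of 4515 listed junctions (8.46%), in 188 host genes. Together they held 3552 of 113551 head back-splice reads (3.13%). A back-splice junction is the join by which the end of a downstream exon is spliced back to the start of an upstream exon, and it is the mark that a circular RNA leaves in RNA sequencing.

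The head RNA was taken from Canton-S flies, the wild type (WT), and from flies carrying C4, a mutation that slows RNA polymerase II (slow). The sample titles add the numbers 18 and 29, called title numbers here because their sense is not stated in the labels. Each combination (WT18, WT29, slow18, slow29) had 2 RNA samples, and each of these 8 samples gave 1 mock library and 1 library treated with RNase R, an enzyme that digests RNA from a free end and leaves most circles intact. S2 cells, a cultured line of embryonic origin, gave 1 mock and 1 RNase R library, and WT heads gave 1 further library that keeps the strand. The labels do not give the age or sex of the flies, and they do not say whether replicates are separate batches of flies. The p-values are then based on a spread between RNA samples that may be only technical.

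In Drosophila, circles form when a splice donor is joined to an acceptor upstream of it, and this competes with ordinary splicing of the same transcript. Most known fly circles hold a few exons, often begin at the second exon of a gene and are common in the nervous system. Long introns next to the circularised exons are known to favour back-splicing, as are inverted repeats within them. The distance between the ends of a junction is a length on the genome: the introns between the ends are usually spliced out, and the junction reads do not show whether they were.

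Long junctions held 28 to 143 reads of a mock head library, out of totals of 800 to 3427, and 138 to 742 reads of an RNase R head library, out of 4871 to 20254. A difference at a long junction therefore often rests on a handful of reads, and levels are given as reads per 10000 listed back-splice reads of a library. No library stood apart in its share of long junctions. Of the cell type marker lists, the photoreceptor, fat body, glia and hemocyte genes hosted 0 long junctions of 46, 42, 2 and 65 listed. The muscle genes hosted 2 of 66 and the neuron genes 12 of 53, where 8.46% of all junctions were long. The neuron count came mostly from 1 gene. The sodium channel gene para held 11 of the 12, with 24 junctions listed, and the synaptotagmin gene syt held 1.

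The long junctions covered the whole range up to the upper limit, with a median span of 16732.5 bases (quartiles 12538.8 and 26716.5). Spans of 10 to 20 kb were seen in 236 (61.8%), and 23 (6.02%) were over 50 kb. At the lower limit, the nearest members were a junction of p120ctn with 10007 bases and 51 reads and one of CG31619 with 10022 bases and 3 reads, and the nearest junctions outside were one of scro with 9881 bases and one of CG15312 with 9853 bases, each with 2 reads. At the upper limit, mbl with 97752 bases (3 reads) and CG15352 with 92176 bases (2 reads) lay inside, and CG41123 with 103554 bases and CG41075 with 114231 bases (2 reads each) lay outside. For comparison, 2221 head junctions spanned under 1 kb, 1881 spanned 1 to 10 kb and 31 spanned more than 100 kb.

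Most long junctions ran from an annotated exon start to an annotated exon end. Host genes were looked up in a later annotation, whose coordinates differ from those of the deposited tables, so a junction was called matched when its length equalled exactly the distance between the start of one exon and the end of the same or a later exon on 1 transcript of its host. That was so for 288 of the 382 (75.4%), which held 79.3% of the long reads. The share was 81.5% among junctions of 1 to 10 kb, 45.6% under 1 kb, and 1 of 31 above 100 kb. Of the other long junctions, 76 had no match, and 7 were longer than their annotated host gene. For 7 long junctions the strand given was opposite to that of the host. Where several transcripts fitted a junction, exon numbers, exonic length and introns are those of the transcript with the most exonic bases.

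The exons that a matched long junction encloses would make an RNA of ordinary size. They numbered 5 at the median (quartiles 3 and 7, range 2 to 31) and summed to 1012 bases (quartiles 620.5 and 1774.25), against 899 bases for matched junctions of 1 to 10 kb. Exons were 5.53% of the span at the median, against 38.1% for junctions of 1 to 10 kb. No matched long junction consisted of a single exon. The greater span lay in the introns: the longest intron inside the junction had a median of 10375 bases, against 954 for the 1 to 10 kb junctions.

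**Figure D1:**
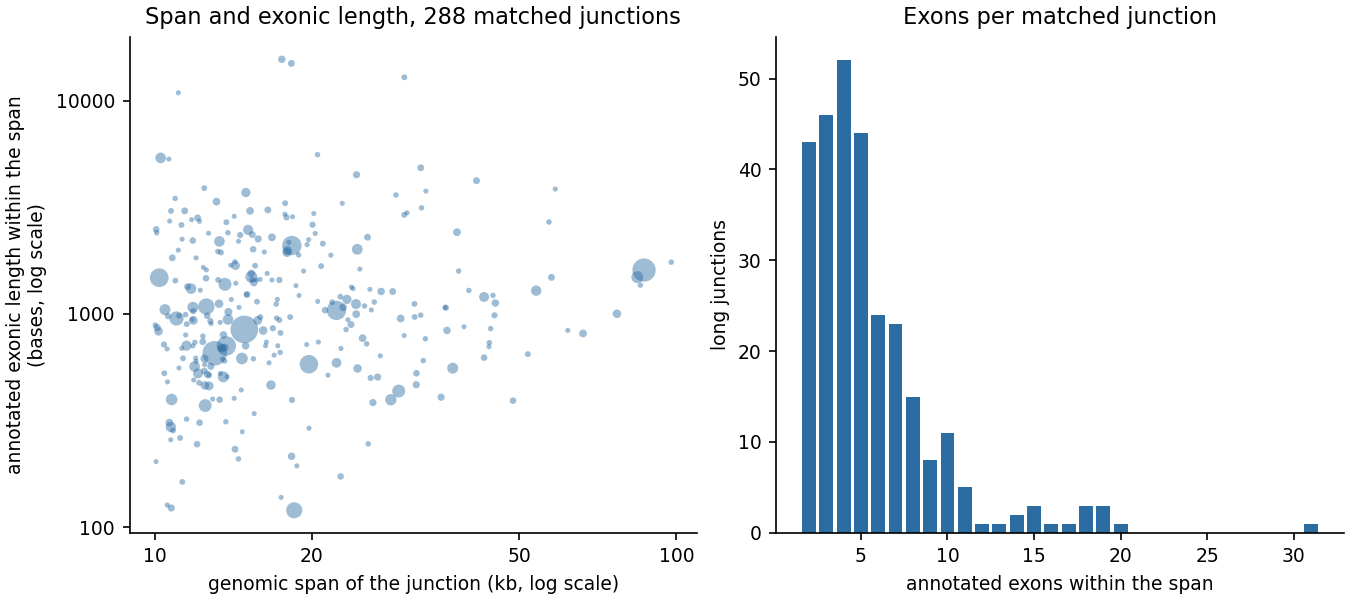
Left, annotated exonic length (bases, log scale) against genomic span (kb, log scale) for the 288 matched long junctions, with the area of each point growing with its reads; right, the number of annotated exons within the span. Exonic length has a median of 1012 bases over all these junctions and of 1424.5 bases at spans over 50 kb, and most junctions enclose 2 to 7 exons.

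The flanking introns were also longer than those of shorter junctions. The intron before the first exon had a median of 4897 bases and the intron after the last exon 3978 bases, against 3302 and 1946 for the 1 to 10 kb junctions. Of the matched long junctions, 145 (50.3%) began at exon 2 of a transcript, against 41.2% at 1 to 10 kb and 42.2% under 1 kb. Here any transcript that fitted the junction counts, so hosts with more transcripts have more chances to be counted. What part of the difference this accounts for was not tested. Coding sequence was enclosed by 281 of the 288, and 146 were wholly coding.

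Match and span went together within the long junctions. Matches were found for 194 of the 236 junctions of 10 to 20 kb (82.2%), 82 of the 123 of 20 to 50 kb (66.7%) and 12 of the 23 of 50 to 100 kb (52.2%). The exonic length had medians of 961.5, 1071 and 1424.5 bases over the same bands. The median read number was 4 in each band.

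By chromosome, 79 long junctions lay on 3R, 71 on 3L, 70 on 2R, 61 on X and 47 on 2L. The small chromosome 4 held 26, which is 11.2% of its 232 listed junctions, against 8.46% over the genome. The gene pan held 15 of these 26, with 28 junctions listed, so the higher share came mostly from pan and does not set the chromosome apart. The heterochromatic scaffolds of the build held 24 long junctions in 13 host labels (6.28% of the long ones, against 2.90% of all junctions). Genes in heterochromatin are known for very long introns. Among them were the MAP kinase gene rl, whose junction 2RHet:203349-232695 (29347 bases) had 35 reads, and CG40084 (uex), whose junction 2RHet:3154309-3169621 had 29.

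The 6 leading hosts held a large part of the long junctions. The splicing regulator gene mbl (muscleblind) had 22, the Wnt pathway transcription factor gene pan had 15, and the sodium channel gene para, the calcium-activated potassium channel gene slo and the Rac exchange factor gene sif had 11 each. Next came CG32306 (Svil, a supervillin-related actin regulator) with 6, as many as the vesicle priming gene Caps (Cadps), the splicing repressor gene heph and the receptor gene Dscam, which had fewer reads. The first 6 hosts held 76 long junctions (19.9%) and 31.9% of the long reads. At the other end, 110 hosts had 1 long junction and 78 had 2 or more.

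Long junctions were mostly a minor part of the circles of their host. The median share of a host's back-splice reads at its long junctions was 9.93%. It was 2.37% for mbl, of whose 16027 reads 15526 lie on 1 circle of 654 bases, 12.6% for sif and 17.9% for slo, 31.0% for pan, 61.2% for para and 69.2% for CG32306. In 16 hosts every listed junction was long, most of them with few reads: CG41042 (37 reads on 2 junctions), CG40155 (Myo81F, 25 reads), CG9472 (15 reads) and the protein kinase A regulatory subunit gene Pka-R2 (13 reads) had the most, together with CG40138 (15 reads).

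Shared ends were the rule among long junctions. The acceptor (the upstream end, at which the back-splice enters) was shared with another listed junction by 257 of the 382 (67.3%), the donor by 252 (66.0%), both by 164 (42.9%) and at least 1 of them by 345 (90.3%). At 1 to 10 kb at least 1 end was shared by 62.6%, and under 1 kb by 34.3%. The partner was a junction under 10 kb for 294 (77.0%), and 281 (73.6%) had a partner with more reads than their own. Only 37 long junctions shared neither end. A longer stretch holds more splice sites, and what part of the difference this accounts for was not tested.

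Single exon starts took part in several long circles. The acceptor of mbl at 2R:13162915, which the most abundant head circle (654 bases, 15526 reads) uses, was also the start of 8 long junctions of 20467 to 97752 bases, with 235 reads or 1.49% of the reads at that acceptor. The acceptor of pan at 4:92947 was the start of 7 long junctions of 10426 to 27155 bases with 282 reads, which is 46.5% of the 607 reads there, and a circle of 542 bases had as many reads as these 7 together. At para X:16398331 and slo 3R:20502966 each acceptor served 6 long junctions and no shorter one, with 58 and 52 reads. On the donor side, mbl 2R:13249602 closed 3 long junctions with 174 of the 176 reads at that end, and Dscam 2R:3235354 closed 5 with 14 reads.

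**Figure D2:**
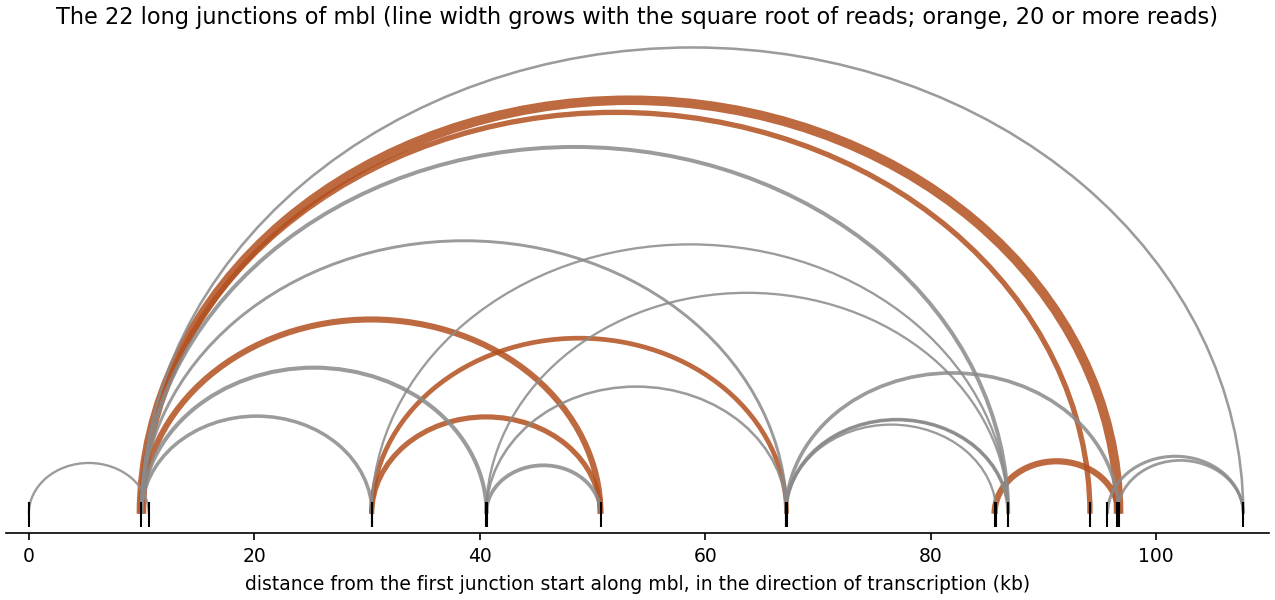
Arcs join the ends of the 22 long junctions of mbl along the gene, drawn as distance in kb from the first junction start, with line width growing with the square root of the reads over the 16 head libraries (orange, 20 or more reads). The widest arc is the 86688-base junction with 121 reads, and 8 of the 22 arcs leave the same acceptor.

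The mbl junctions formed a nested series. From the shared acceptor they reached donors at spans of 20467 (9 reads), 30628 (14 reads), 40729 (41 reads), 57232 (5 reads), 76896 (13 reads), 84148 (29 reads), 86688 (121 reads) and 97752 bases (3 reads). Reads did not fall steadily with span, and the 86688-base junction had the most. For pan, the junctions from 4:92947 ran over 4 to 10 annotated exons, and those over 7 exons (14846 bases, 172 reads) and 8 exons (22295 bases, 82 reads) had most of the reads. Across hosts, 325 long junctions (85.1%) enclosed at least 1 other junction of the same host, 3 at the median and 28 at most. Another host's junction lay inside 19 of them, and 19 shared an end with a junction that carries another label, so the host of those is uncertain.

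The 20 long junctions with the highest mean level came from 16 hosts and had mean levels from 2.95 to 16.7 reads per 10000. Of these 20, 19 were listed in both replicate tables, 14 were matched and 18 shared an end. The first was pan 4:92947-107792 (14846 bases, 7 exons with 846 bases), with 0 to 45.2 reads per 10000 in mock (median 12.9) and 8.77 to 31.0 in RNase R (median 15.8). The mean was 17.2 ± 13.4 in mock and 16.1 ± 6.80 in RNase R (SD, n = 8 each). The libraries overlapped widely, and the wide range in mock comes from 0 to 5 reads per library.

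The second was mbl 2R:13162915-13249602 (86688 bases, 6 exons with 1606 bases). On the transcript used, a single intron takes 75030 bases of it. Other long junctions of mbl, such as 2R:13183340-13203643, have both ends within this span. The 86688-base junction had 19.2 ± 11.7 reads per 10000 in mock and 8.79 ± 6.74 in RNase R (SD, n = 8). Then came para X:16398023-16408217 (10195 bases, 7 coding exons), the 1 long junction with reads in all 16 libraries, at 5.84 to 25.0 in mock and 2.39 to 16.4 in RNase R. The adherens junction gene p120ctn (2R:486774-496780, no match) and the complexin gene cpx (3R:108396-121422, 13027 bases, 5 exons), which acts on the machinery of vesicle fusion, followed with means of 10.6 and 10.4 over the 16 libraries. Caps 4:1250828-1269135 (18308 bases, 10 coding exons) had 10.1, and the 22295-base junction of pan 9.37.

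Lower in the order were CG32541 X:18847559-18881290 (33732 bases, no match) with a mean of 7.52 reads per 10000, the Pax6 gene toy (4:1012692-1025244, 12553 bases) with 5.93, the LIM domain gene Lmpt (3L:16877019-16890728, 13710 bases, 3 exons) with 5.19 and CG32306 (3L:2415391-2435132, 19742 bases) with 4.97. The last one joined 2 exons with 581 bases and no coding sequence. Another 3 mbl junctions had 3.92 (11004 bases), 3.18 (40729 bases) and 2.95 (84148 bases). The rest were CG40084 (uex) with 4.04, CG40178 with 3.68, CG9472 with 3.47, CG41042 with 3.41, the polarity gene scrib with 3.14 and CG40155 with 2.96. These means weight the shallow mock libraries like the deeper RNase R libraries. The rank of scrib rests on 4 mock reads, all in slow18, with 25.0 and 22.6 reads per 10000 there, 0 in the other 6 mock libraries and a mean of 0.336 in RNase R.

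Detection fell off quickly below these. The median long junction had 4 reads over the 16 libraries, 134 (35.1%) had 2, the smallest number a table lists, and 83 had at least 10. Reads came from 1 library for 44 long junctions, from 2 for 131 and from at least 8 for 50. Both replicate tables listed 168 (44.0%), against 57.3% at 1 to 10 kb and 43.5% under 1 kb. No read in mock was seen for 190 (49.7%) and no read in RNase R for 5.

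One long junction had many reads in a single table. CG9472 (brv1, a channel gene) 3L:19416479-19480206, which spans 63728 bases, matches no exon ends and shares no end, had 15 reads, all in libraries of replicate 2. Its reads were 1, 2, 1 and 3 in the replicate 2 mock libraries of WT18, WT29, slow18 and slow29, and 3, 0, 5 and 0 in their RNase R libraries. The 8 libraries of replicate 1 had 0. The replicates have separate tables, and a junction seen once in a table is not listed there.

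Long junctions made up a smaller part of the back-splice reads after RNase R than in mock. The share was 3.16 to 4.69% in the 8 mock libraries (mean 3.88 ± 0.50 SD) and 2.46 to 3.66% in the 8 RNase R libraries (mean 2.93 ± 0.38 SD). It was lower after RNase R in 8 of 8 RNA samples, by a mean log2 ratio of -0.40 ± 0.25 (SD), although the ranges of the 2 treatments overlap. The share of 1 to 10 kb junctions had a mean log2 ratio of -0.02 and that of junctions under 1 kb 0.15. Since the long junctions were chosen with earlier results known, these shares are a description without a test.

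The lower share was seen in most samples for matched and unmatched junctions alike. For matched long junctions the mean log2 ratio was -0.36 ± 0.38 (SD), lower in 6 of 8 samples, and for the others -0.52 ± 0.57, lower in 7 of 8. Junctions above 100 kb made up 3.07 to 7.65% of the mock reads and 0.0778 to 0.431% of the RNase R reads. Photoreceptor marker genes made up 1.94 to 4.25% of the mock reads and 0.310 to 0.555% of the RNase R reads, and muscle marker genes 2.51 to 9.25% and 0.603 to 1.62%. These shares belong to the totals by which every level is divided, and their part in the levels of long junctions was not tested.

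**Figure D3:**
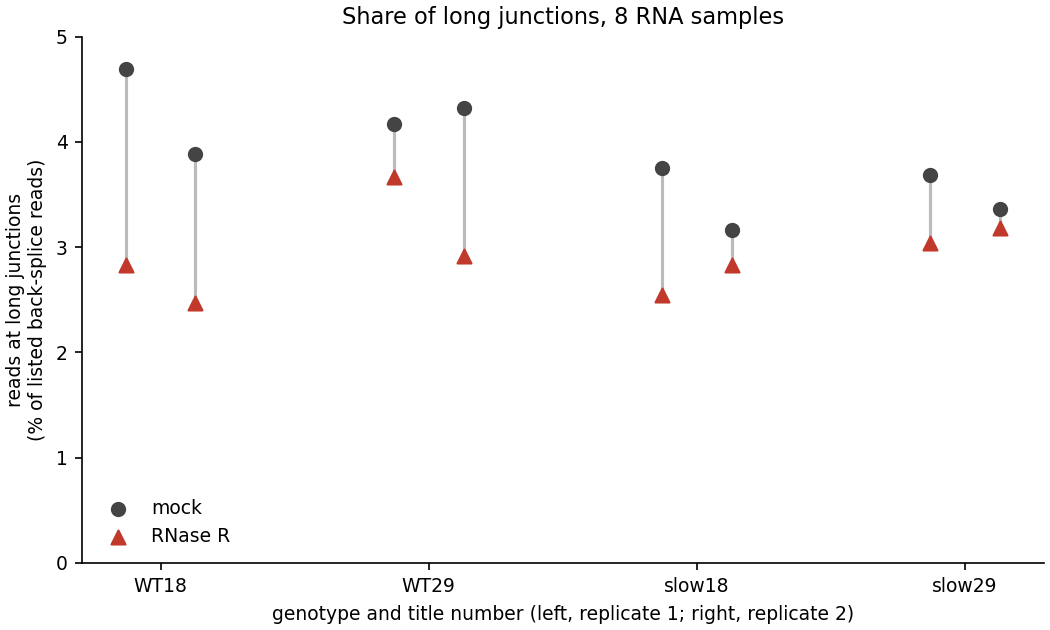
Share of listed back-splice reads at long junctions (percent) in the 16 head libraries, with the mock (circle) and RNase R (triangle) library of each RNA sample joined by a line, by genotype and title number. All 8 lines run down from mock to RNase R, and the mock shares of the 4 WT libraries, 3.88 to 4.69%, lie above those of the 4 slow libraries, 3.16 to 3.75%.

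For single junctions, RNase R was compared with mock by edgeR's quasi-likelihood F-test over all junctions listed in both tables with at least 10 reads, with the RNA sample as block and Benjamini-Hochberg adjustment at 0.05. Of the 82 long junctions tested, 3 fell (3.66%) and 0 rose relative to the other back-splice reads. Over all 1354 junctions tested 7.53% were called, 1.92% higher and 5.61% lower, so the long junctions were called no more often than the rest. At an unadjusted p below 0.05 there were 10 of the 82 long junctions and 247 of all 1354. DESeq2 called 0 long junctions higher and 1 lower.

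p120ctn fell the most. Its 10007-base junction had 0 to 28.3 reads per 10000 in mock (median 20.9) and 0 to 4.90 in RNase R (median 1.80), or 28 reads in all mock libraries and 23 in the far deeper RNase R libraries. It was lower after RNase R in 7 of 8 samples, and the exception is replicate 1 of slow18, with 0 reads in mock and 3 in RNase R. The log2 fold change was -3.15 ± 0.45 (SE, edgeR adjusted p = 2.0e-10), and the call held in 16 of 16 alternatives. The ends of this junction match no annotated exon ends.

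Caps, which primes dense-core vesicles, fell less. Its junction had 0 to 35.0 reads per 10000 in mock (median 12.99) and 0.819 to 11.8 in RNase R (median 5.20), lower in 6 of 8 samples with overlapping ranges. The log2 fold change was -1.51 ± 0.43 (SE, edgeR adjusted p = 0.0077), and without replicate 1 of WT29 the adjusted p was 0.133. The 86688-base junction of mbl had 0 to 37.5 in mock (median 20.7) and 1.79 to 22.3 in RNase R (median 7.27), again lower in 6 of 8. Its log2 fold change of -1.12 ± 0.37 (edgeR adjusted p = 0.038) missed the threshold without replicate 1 or 2 of slow18 (adjusted p = 0.0913 and 0.0513) or without replicate 1 or 2 of WT29 (0.241 and 0.113). Both junctions missed it with TMM over all tested junctions (0.160 for Caps and 0.509 for mbl) and with DESeq2 (0.189 and 0.322), and the mbl junction also with RLE scaling (0.0776) and with no minimum of reads (0.0533).

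Over length classes the median log2 fold change went down with span. It was 0.58 for the 601 tested junctions under 1 kb, 0.20 for the 665 of 1 to 10 kb and -0.14 for the 82 long ones, where the median over all tested junctions was 0.38. Among long junctions 42.7% had a positive log2 fold change, against 62.9% of all. Matched and unmatched long junctions had medians of -0.16 and -0.08. The level of these values depends on the scaling: TMM over all tested junctions moved the median of all junctions by 0.74 to 1.12 and the long median to 0.59, and it called 4 long junctions higher and 1 lower, while DESeq2 moved the median of all junctions by -0.59. The long median minus that of all junctions was -0.52 with the main scaling and ranged from -0.74 to -0.49 over the other scalings and filters. With an RNA sample left out it ranged from -0.65 to -0.31. The smallest difference was without replicate 2 of WT29, where the long median was 0.13, while without replicate 1 of WT29 the long median was -0.27.

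**Figure D4:**
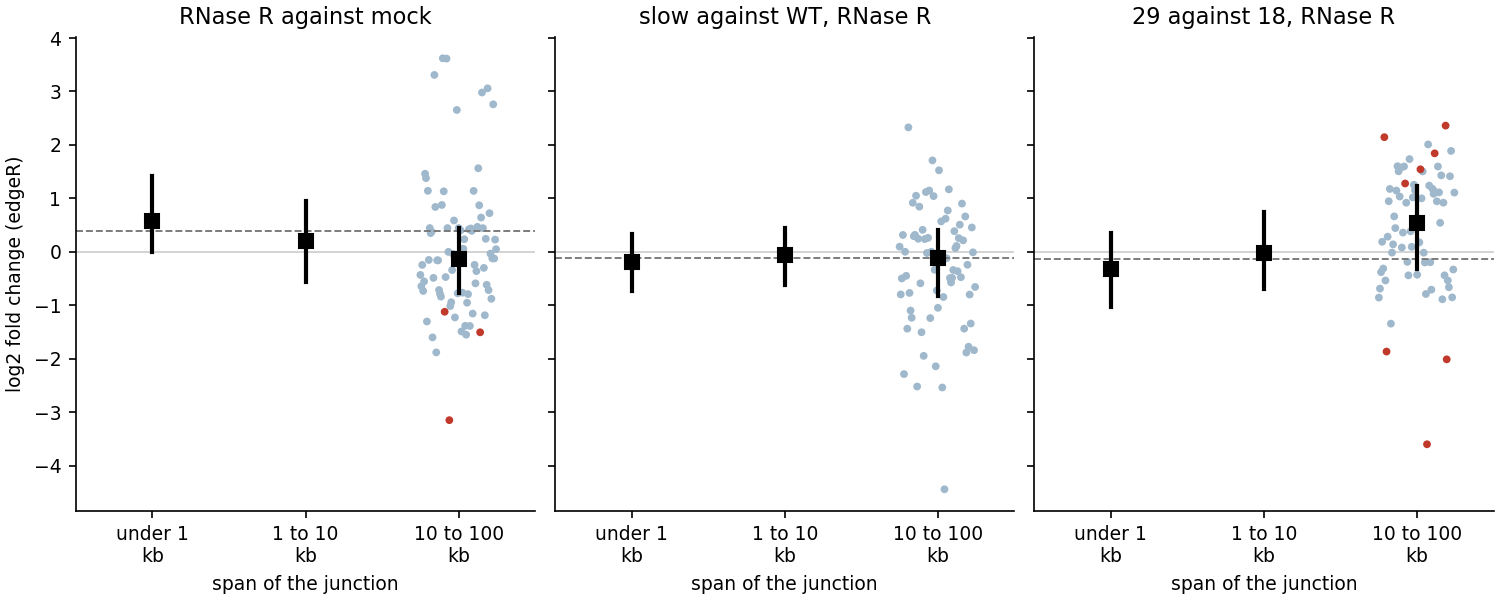
Log2 fold change by span for 3 comparisons: black squares and bars are the median and quartiles of all tested junctions of each length class, the dashed line is the median over all classes, and points are the long junctions (red, edgeR adjusted p below 0.05). The long median lies below the dashed line for RNase R against mock (-0.14 against 0.38), on it for slow against WT (-0.11 against -0.12) and above it for 29 against 18 (0.54 against -0.13).

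Slow was compared with WT to see whether the speed of the polymerase bears on long circles, in mock and RNase R libraries separately and with the title number as a factor. In mock libraries the share of long junctions was 3.16, 3.37, 3.68 and 3.75% in slow and 3.88, 4.17, 4.33 and 4.69% in WT. The slow libraries were all below the WT libraries. This was not particular to long junctions. The share of 1 to 10 kb junctions separated the same way, with 34.2 to 37.1% in slow and 38.9 to 42.3% in WT. Junctions under 1 kb went the other way, with 53.9 to 58.4% in slow and 49.3 to 52.2% in WT. Totals were 800 to 2257 listed reads in slow and 876 to 3427 in WT, and the part of depth in these differences was not tested. After RNase R the shares of long junctions overlapped, with 2.55 to 3.19% in slow and 2.46 to 3.66% in WT.

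For single junctions in mock, 0 of the 7 long ones tested were called, and 0 of all 230 (0%). At an unadjusted p below 0.05 there were 0 long junctions and 16 in all, and DESeq2 called 0. The smallest p values belonged to Caps (log2 fold change -1.09 ± 0.67 SE, edgeR adjusted p = 0.617), with 25.0, 0, 0 and 13.3 reads per 10000 in slow and 12.7, 35.0, 22.8 and 11.1 in WT, to the 86688-base mbl junction (0.68 ± 0.58, adjusted p = 0.700) and to pan 4:92947-115241 (-0.67 ± 0.72, adjusted p = 0.722). With 5 to 19 reads per group at these junctions, no difference was detectable at this depth.

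In RNase R libraries 0 of 70 long junctions passed, where 2.95% of all 1221 junctions did (0.901% higher and 2.05% lower). At an unadjusted p below 0.05 there were 13 of the 70 long junctions and 177 of all 1221. DESeq2 called 0 long junctions. The long median log2 fold change of -0.11 lay beside -0.12 for all. Closest to the threshold was CG31619 2L:21688474-21704603 (16130 bases), in the gene now called nolo. It had 0.819, 1.97, 2.99 and 2.39 reads per 10000 in the WT libraries and 0 in all 4 slow libraries, so that the groups did not overlap, at 13 reads against 0. Against a floor of 3 reads over the slow group it was 2.69-fold lower in slow, a ratio that leaves out the counting error of the 13 reads. The edgeR adjusted p was 0.0629, and 0.0494 without replicate 1 of WT18. CG31619 met the minimum of 10 reads only through the WT libraries, so its entry into the test and its difference rest on the same reads.

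The other 2 near the threshold went opposite ways. The polarity gene sdt, whose product anchors Crumbs, had 2.46, 6.91, 2.39 and 5.58 reads per 10000 at X:8085845-8098336 in WT and 0, 0, 2.05 and 1.86 in slow. Every slow library was below every WT library, narrowly at 2.05 against 2.39, with 28 reads in WT and 4 in slow. The junction met the minimum of 10 reads only through the WT libraries. Its log2 fold change was -2.14 ± 0.73 (SE, edgeR adjusted p = 0.0727, and 0.0387 without replicate 2 of slow18). The 86688-base mbl junction had 7.37, 7.41, 1.79 and 7.17 in WT and 4.90, 15.3, 4.11 and 22.3 in slow, where only the slow29 libraries were above WT. Its log2 fold change was 1.12 ± 0.38 (edgeR adjusted p = 0.0727), with an adjusted p of 0.0494 without replicate 2 of slow18, 0.0380 without replicate 1 of WT18 and 0.0340 with RLE scaling.

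The same 8 libraries of each treatment were also compared by title number, with genotype as a factor, so the 2 comparisons share their samples. In RNase R libraries the share of long junctions was 2.83, 2.55, 2.46 and 2.83% at 18 and 3.66, 3.04, 2.92 and 3.19% at 29. All 4 libraries at 29 were above all 4 at 18, with totals of 11115 to 20254 reads at 29 and 4871 to 16714 at 18. The share of matched long junctions separated too, with 1.85 to 2.20% at 18 and 2.25 to 2.99% at 29. That of unmatched long junctions overlapped, with 0.588 to 0.680% at 18 and 0.405 to 0.671% at 29. In mock libraries the ranges for all long junctions overlapped, with 3.16 to 4.69% at 18 and 3.37 to 4.33% at 29.

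In RNase R libraries 8 of the 70 long junctions tested were called, 5 higher and 3 lower at 29. That is 11.4%, beside 14.1% of all 1221 junctions (5.73% higher and 8.35% lower), so the share called was near the background. The long median log2 fold change was 0.54, where that of all junctions was -0.13, and 65.7% of long junctions had a positive value against 45.1% of all. The median was 0.60 for matched long junctions and 0.36 for unmatched ones. Of the 56 matched ones tested 4 were called higher and 0 lower, and of the 14 unmatched ones 1 higher and 3 lower. The long median lay 0.68 above that of all junctions, and this difference ranged from 0.45 with no minimum of reads to 1.05 with at least 50 reads. With an RNA sample left out it ranged from 0.31 to 0.83. The lowest value was without replicate 1 of WT29, where the long median was 0.18, and without replicate 1 of WT18 the long median was 0.34. DESeq2 called 3.

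The complexin junction of cpx rose. Its 4 RNase R libraries at 18 had 3.28, 3.27, 5.98 and 4.11 reads per 10000 and those at 29 had 15.3, 17.1, 17.5 and 17.97. The groups did not overlap, and the values were close within each number for both genotypes. The log2 fold change was 1.84 ± 0.39 (SE, edgeR adjusted p = 7.2e-05), and the call held in 16 of 16 alternatives. In mock, where the same junction had 0, 0, 11.4 and 0 at 18 and 14.6, 18.9, 18.5 and 17.7 at 29, the groups did not overlap either, but with 1 read against 16 the test was not passed (edgeR adjusted p = 0.122). That ratio was 7.01 (exact 95% interval 1.09 to 293.9, for counting error only). In mock the junction met the minimum of 10 reads only through the libraries at 29.

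CG32541, on X and now called CG43759, fell the most clearly. It had 16.4, 9.80, 14.4 and 18.5 reads per 10000 at 18 and 4.44, 2.70, 3.98 and 3.10 at 29, again without overlap. The log2 fold change was -2.01 ± 0.40 (SE, edgeR adjusted p = 2.7e-05), called in 16 of 16 alternatives. Its span of 33732 bases matched no exon ends of the host.

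Caps rose as well, from 0.819, 3.27, 1.20 and 4.11 at 18 to 11.8, 6.30, 6.38 and 8.06 at 29. All values at 29 were above those at 18 (log2 fold change 2.15 ± 0.54 SE, edgeR adjusted p = 0.0013). With 7 reads at 18 and 52 at 29, the minimum of 10 reads was met only through the libraries at 29. The adjusted p was 0.0539 without replicate 2 of WT18 and 0.0595 without replicate 1 of WT29. This is the junction that fell after RNase R, and the RNase R libraries at 29 are part of both comparisons.

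A pair of mbl junctions rose with less even values. The 86688-base junction had 7.37, 4.90, 1.79 and 4.11 at 18 and 7.41, 15.3, 7.17 and 22.3 at 29, where the high values are those of slow29 and the WT29 libraries lie near replicate 1 of WT18. Its log2 fold change was 1.28 ± 0.41 (SE, edgeR adjusted p = 0.0204). It missed the threshold without replicate 1 or 2 of slow18 (adjusted p = 0.121 and 0.113), replicate 2 of slow29 (0.113) or replicate 2 of WT18 (0.166), and with DESeq2 (0.0809).

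The other, mbl 2R:13183340-13203643 (20304 bases), had 3 reads at 18 and 22 at 29. It met the minimum of 10 reads only through the libraries at 29. Its levels were 1.64, 0, 0.598 and 0 at 18 and 4.94, 1.80, 6.38 and 1.24 at 29, highest in WT29, and the lowest library at 29 lay below the highest at 18. The ratio of the summed reads per listed read was 4.87 (exact 95% interval 1.46 to 25.4), and the fitted log2 fold change 2.36 ± 0.82 (SE, edgeR adjusted p = 0.0329). The call was lost without replicate 1 of slow18 (0.0576), replicate 1 or 2 of WT18 (0.0587 and 0.253) or replicate 2 of WT29 (0.0720), and with DESeq2 (0.193).

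The fifth junction that rose belongs to toy. It had 2.46, 1.63, 1.20 and 4.11 at 18 and 7.41, 6.30, 3.19 and 9.30 at 29, with 1 library at 29 below the highest at 18. With 8 reads at 18 and 41 at 29, the minimum of 10 reads was met only through the libraries at 29. The log2 fold change was 1.54 ± 0.56 (SE, edgeR adjusted p = 0.0422), and it was the least stable, with the call lost in 8 of 15 alternatives. Its adjusted p was 0.140 without replicate 1 of slow18, 0.108 without replicate 2 of slow29, 0.0802 and 0.218 without replicate 1 and 2 of WT18 and 0.218 without replicate 1 of WT29. It was 0.177 with DESeq2, 0.0721 with no minimum of reads and 0.0524 with junctions listed in either table.

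The remaining junctions that fell at 29 share an acceptor at 2R:6681989 and carry the labels CG33144 and mthl13, so both may draw on the same transcripts. Their host is uncertain. CG33144 2R:6653974-6681989 (28016 bases) had 7.37, 1.63, 8.38 and 4.11 at 18 and 0.987, 0.900, 3.98 and 0.620 at 29. Replicate 2 of WT29 was the highest at 29 and replicate 1 of slow18 the lowest at 18, so the groups overlapped. With 26 reads at 18 and 9 at 29, the minimum of 10 reads was met only through the libraries at 18. The log2 fold change was -1.87 ± 0.60 (SE, edgeR adjusted p = 0.0184), with an adjusted p of 0.116 without replicate 2 of WT18, 0.270 without replicate 1 of WT29 and 0.283 with DESeq2.

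mthl13 2R:6670979-6681989 (11011 bases) had 1.64, 4.90, 2.39 and 4.11 at 18 and 0, 0, 0.797 and 0 at 29, which is 11 reads against 1. The ratio of the summed reads was 16.6 (exact 95% interval 2.40 to 712.3), and edgeR gave an adjusted p of 0.0068. It met the minimum of 10 reads only through the libraries at 18. Without replicate 1 of WT29 the adjusted p was 0.0595, and with DESeq2 0.0813. Neither junction matched exon ends of its label.

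**Figure D5:**
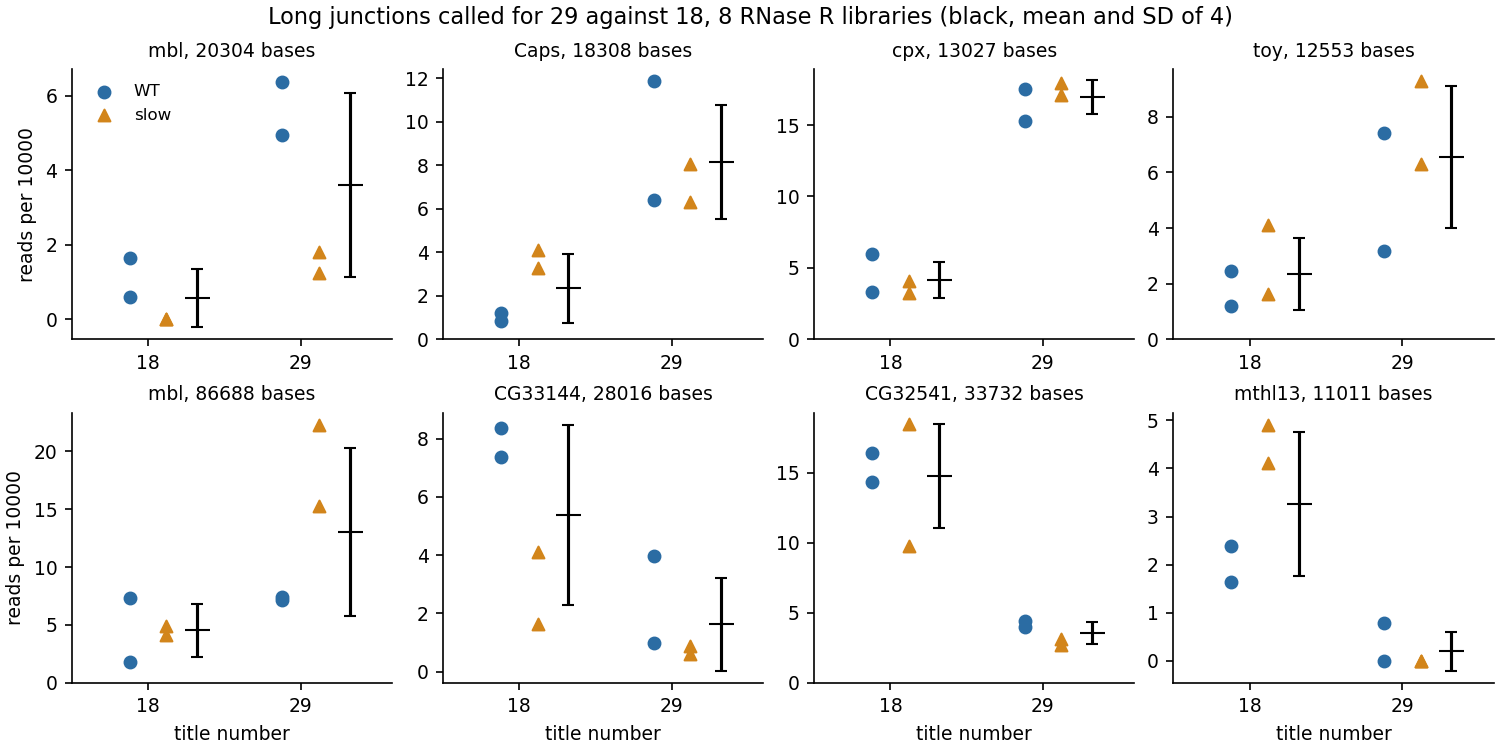
Reads per 10000 listed back-splice reads in the 8 RNase R libraries for the 8 long junctions called for 29 against 18, by title number, with WT as circles, slow as triangles, and the mean and SD of the 4 libraries of a number in black. cpx and CG32541 are separated by number in both genotypes, and the 2 mbl panels are carried mostly by slow29 (86688 bases) and by WT29 (20304 bases).

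In mock libraries 0 of 7 long junctions were called by title number, against 4.78% of all 230 (2.17% higher and 2.61% lower). At an unadjusted p below 0.05 there was 1 of the 7, cpx, beside 47 of all 230. DESeq2 called 0 long junctions. After cpx, the smallest p values belonged to pan 4:92947-107792 (log2 fold change -0.82 ± 0.63 SE, edgeR adjusted p = 0.510) and para X:16398023-16408217 (-0.89 ± 0.71, adjusted p = 0.514). The para levels were 19.0, 25.0, 22.8 and 11.3 at 18 and 5.84, 18.9, 11.1 and 8.86 at 29. An interaction of genotype with title number was called by edgeR for 0 long junctions of 7 in mock and 70 in RNase R. It was called for 0 of all 230 and 1221 junctions too. At an unadjusted p below 0.05 there were 1 and 3 long junctions. No other tool was run on the interaction.

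By function, 46 of 166 junctions of RNA binding and splicing genes were long (27.7%), and 24 of 136 (17.6%) without mbl. The hosts are mbl with 22, heph, the hnRNP gene sm, the Bruno family gene bru-3, the Musashi gene msi and others. At 29, 2 of 10 tested rose in RNase R, both of them in mbl, and 5.73% of all tested junctions did. Ion channel and synaptic genes had 59 of 309 (19.1%), with para, Caps, slo and sif having the most long reads among the genes of the list. Of these 59, para, slo and sif held 11 each, with 24, 33 and 26 junctions listed. Much of the share of this list thus came from para, slo and sif. The signalling list holds sif too. The synaptic list does not hold cpx, which had 145 long reads and whose 13027-base junction also rose at 29. Of the 14 junctions of the list that were tested, 1, in Caps, rose at 29. Signalling enzyme genes had 28 of 168 (16.7%), of which sif held 11. Transcription factor and chromatin genes had 23 of 183 (12.6%). Of these 23, 15 lay in pan, which has 28 listed junctions. Of the 6 tested, 1, in toy, rose at 29. Axon guidance and adhesion genes had 31 of 248 (12.5%) and cytoskeleton genes 16 of 192 (8.33%). Over all genes 8.46% of junctions were long. In RNase R against mock, 1 synaptic junction of 15 tested (Caps) and 1 RNA binding junction of 12 (mbl) fell, where 5.61% of all tested junctions did. Counts this small do not set a list apart from that background. The lists cover 192 of the 382 long junctions.

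Few of the long junctions of heads were seen in S2 cells. Of the 382, 9 (2.36%, exact Clopper-Pearson 95% interval 1.08 to 4.43%) were listed there, against 13.5% of head junctions under 1 kb and 10.4% of those of 1 to 10 kb. Among those with 30 or more head reads it was 1 of 19. The most abundant in S2 was CG9472, with 11 reads in mock and 15 in RNase R, then the synaptic vesicle priming gene unc-13 (4:903587-924097, 20511 bases) with 13 and 3 against 3 reads in all head libraries. The junction msi 3R:21389802-21426486 had 6 reads in S2 RNase R, pan 4:92947-107792 had 4 and the Mediator gene skd (3L:21005311-21018648) had 3. With 1 library per treatment there is no replicate check.

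S2 cells also had long junctions that were not listed in heads. The S2 table listed 87 junctions of 10 to 100 kb, of which 78 were not listed in heads. This was not particular to long junctions, since most of the 1280 junctions of the S2 table were not listed in heads. Those listed in both were 299 under 1 kb, 196 of 1 to 10 kb, 9 long and 5 above 100 kb. The 87 long junctions took 379 of 4421 reads in mock (8.57%, interval 7.76 to 9.44%) and 484 of 14874 in RNase R (3.25%, interval 2.97 to 3.55%). The intervals cover counting error only. The share was thus lower in the RNase R library in S2 cells too, in 1 library each.

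The library that keeps the strand listed long junctions on the strand given in the head tables. It had 112 of 2599 reads (4.31%, exact 95% interval 3.56 to 5.16%) on 28 long junctions, of which 26 were in the head tables on the same strand and 0 on the opposite strand. The 26 are 6.81% of the 382, against 7.07% of head junctions under 1 kb and 12.1% of those of 1 to 10 kb. Among long junctions with 30 or more head reads 8 of 19 (42.1%) were seen. Of the 447 junctions of all lengths listed in this library, most were in the head tables too. These were 157 under 1 kb, 227 of 1 to 10 kb and the 26 long ones. The pan junction 4:92947-107792 and Caps had 9 reads each, mbl 2R:13162915-13249602 had 8, and p120ctn, toy, the extracellular matrix gene dp (2L:4496247-4513761, 31 exons) and PQBP-1 (3R:4214306-4228597) had 7 each. Lmpt followed with 6 reads, and the 22295-base pan junction, CG32306 and the potassium channel gene SK (X:5277096-5290633) with 4 each.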

How the data were processed

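The deposited tables give whole-number read counts per back-splice junction and library, with position, strand, row total and host label; the build was dm3 and the tools CASAVA and Bowtie, per the submitters' processing notes. Versions, junction caller and thresholds are not given in the sources used here. The RNA had been freed of ribosomal RNA and prepared with a TruSeq kit, per the labels' protocol. In every row of the deposited head and S2 tables the library counts sum to the row total. The smallest total in any table is 2 reads, and a library without listed reads was taken as 0.

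Junctions were joined on exact coordinates and strand. Positions are dm3, counted from 1. Testing was by edgeR 4.0.16 (with limma 3.58.1 under R 4.3.3) on junctions listed in both tables with at least 10 reads and reads in at least 2 libraries, with the reads of those junctions as library size and TMM factors over the 100 most abundant tested junctions, two-sided, with Benjamini-Hochberg adjustment over all tested junctions at 0.05. The SE is the absolute log2 fold change divided by the square root of F. The design was checked on simulated data. DESeq2 1.42.0, other scalings, filters, joins, a replicate block and leaving out each RNA sample were the alternatives. The deviations of same-numbered replicates correlated from -0.05 to 0.22 in mock and from -0.02 to 0.03 in RNase R, so the numbers were not taken to pair libraries. RNase R and mock libraries come from the same RNA sample, per the series' design text. Exon matches used the Ensembl BDGP6 annotation by host name and length, and no coordinate of it is printed. Reads carry no molecular identifiers, so intervals cover counting error only, and sequencing depth beyond the listed reads is unknown.

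Named are the 20 long junctions with the highest mean level, those past the threshold (else the 3 with the smallest p), the 6 leading hosts, those with at least 3 reads in S2 or in the strand-keeping library (at most 10 each), those beside the length limits, and examples of the lists; other examples were chosen after their values were seen. The members and lists were chosen with earlier results of these data known.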

Additional observations from a re-analysis of the deposited data

Results flagged for a closer look

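A sample far from the others of its group was found in 2 of 32 groups of values examined. The nominal chance rate of about 1 in 20 need not hold for counts this low. Both cases concern replicate 2 of WT29 among the 4 RNase R libraries at 29, so they are not independent. At CG33144 2R:6653974-6681989 its 3.98 reads per 10000 (5 reads) stood beside 0.987, 0.900 and 0.620, with a gap of 0.891 of the group's whole range. At mthl13 2R:6670979-6681989 its 0.797 (1 read) stood beside 0 in the other 3 libraries, a gap of 1. With 0 in the other 3 libraries, any read gives this gap. The junctions share an acceptor, and 1 to 5 reads lie behind these values.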

How the results depend on the processing

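No named result changed its direction under any alternative that gave a value. Of the 5 counts of called long junctions, those in mock stayed at 0 by genotype and by title number, also with each RNA sample left out. RNase R against mock gave 3 calls, 5 with TMM over all tested junctions, 1 with DESeq2 and 1 to 4 with an RNA sample left out (1 without replicate 1 of WT29). Slow against WT in RNase R gave 0 calls, 1 with RLE scaling and 0 to 3 with a sample left out (3 without replicate 2 of slow18, 2 without replicate 1 of WT18). Title number in RNase R gave 8 calls, 3 with DESeq2 and 2 to 8 with a sample left out (2 without replicate 2 of WT18, 4 without replicate 1 of slow18 or of WT29). The replicate block left these counts at 0, 0, 0 and 8 for genotype and title number in mock and RNase R, and leaving out the RNA sample block left RNase R against mock at 3. The mean share of long junctions was 3.88% in mock and 2.93% in RNase R, 3.24 and 2.46% over junctions listed in both tables, and 2.99 and 2.33% over matched junctions, an alternative chosen after seeing the data; fewer junctions are counted in both. A minimum of 50 reads left 0 long junctions in the mock comparisons. Except where an alternative leaves out junctions or samples, the cause was not tested. Over all junctions, calls by RNase R against mock were 102 and ranged from 48 (DESeq2) to 302 (TMM over all tested junctions). By genotype they were 0 in mock, with 0 to 2 elsewhere, and 36 in RNase R, with 7 (DESeq2) to 40. By title number they were 11 in mock, with 1 to 11, and 172 in RNase R, with 71 (DESeq2) to 184. Long junctions rest on few reads, and a 0 in a mock library may be a matter of depth.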
